A study of Mus musculus with 11 samples.

Results

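The troponin and tropomyosin genes encode the regulatory proteins of the thin filament, the actin-based filament along which myosin pulls. The genes described here were chosen by name as Tnni1, Tnni2, Tnni3, Tnnt1, Tnnt2, Tnnt3, Tnnc1, Tpm1, Tpm2 and Tpm3, which are 10 of the 50600 genes listed in the count table. All 10 passed the filter on low counts and were among the 15808 genes tested. Tnnc2 and Tpm4, which belong to the same families, are given beside them.

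Pulmonary artery banding (PAB) narrows the vessel that carries blood out of the right ventricle, so that the ventricle pumps against a higher pressure. Hearts of C57BL/6 mice that had PAB or a sham operation on the day of birth (P0) were collected at P3 or P7, the third and seventh postnatal days, and the sham operation differed only in that the artery was not banded. All groups were of the same strain, with no transgene or drug named, and the tissue is called heart in the labels and ventricles in the methods of the study. RNA-seq libraries numbered 3 for P3 sham, 3 for P3 PAB, 3 for P7 sham and 2 for P7 PAB hearts. The labels do not say that each library is a separate animal, so the p-values measure the spread between these libraries.

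Troponin has 3 subunits. Troponin C binds calcium, troponin I holds the filament in the inhibited state at low calcium, and troponin T fixes the complex to tropomyosin, a coiled coil that lies along actin and covers the sites to which myosin binds. Each subunit has isoforms from separate genes. Around birth the rodent heart exchanges slow skeletal troponin I (Tnni1) for cardiac troponin I (Tnni3), and this exchange is a standard marker of cardiomyocyte maturation. Cardiac and slow skeletal muscle share a troponin C gene (Tnnc1), and the rodent heart makes mainly the alpha tropomyosin of Tpm1, while the beta tropomyosin of Tpm2 is better known from skeletal and smooth muscle.

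The genes lie close together in part. In GRCm38 (GENCODE M21), Tnni1 (ENSMUSG00000026418, chromosome 1, 135779434 to 135810989) is followed after 25364 bp by Tnnt2 (ENSMUSG00000026414, 135836354 to 135852260). Tnni3 (ENSMUSG00000035458, chromosome 7, 4518305 to 4524229) and Tnnt1 (ENSMUSG00000064179, 4504570 to 4516382) are 1922 bp apart, and Tnni2 (ENSMUSG00000031097, 142441808 to 142444410) and Tnnt3 (ENSMUSG00000061723, 142498836 to 142516009) are 54425 bp apart on the same chromosome. Tnnc1 (ENSMUSG00000091898) spans 31208312 to 31211729 of chromosome 14, Tpm1 (ENSMUSG00000032366) 67022590 to 67049406 of chromosome 9, Tpm2 (ENSMUSG00000028464) 43514711 to 43523765 of chromosome 4 and Tpm3 (ENSMUSG00000027940) 90072649 to 90100902 of chromosome 3. All are protein coding.

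Tnni1, Tnnc1 and Tpm2 were the members that differed between PAB and sham hearts at P7, and Tnni3 is the isoform that takes the place of Tnni1, so the DNA before the starts of these 4 genes is shown. The RefSeq table (GRCm38.p6) had entries for 8 of the 10 genes, all but Tnni2 and Tnnt3. Of the 250 bases before each start, the longest stretch without an annotated exon is printed 5′ to 3′ on the gene's strand, with matches to an E-box (CANNTG) or an MCAT motif (CATTCC), on either strand, in capitals. The stretches are chr1:135799171-135799401 (plus strand), chr14:31208062-31208311 (plus strand), chr4:43523596-43523700 (minus strand) and chr7:4522529-4522694 (minus strand).
Tnni1: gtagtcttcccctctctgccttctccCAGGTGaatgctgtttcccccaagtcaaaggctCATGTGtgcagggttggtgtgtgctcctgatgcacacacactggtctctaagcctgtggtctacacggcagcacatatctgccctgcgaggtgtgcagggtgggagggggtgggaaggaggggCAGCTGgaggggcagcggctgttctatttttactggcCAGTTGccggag
Tnnc1: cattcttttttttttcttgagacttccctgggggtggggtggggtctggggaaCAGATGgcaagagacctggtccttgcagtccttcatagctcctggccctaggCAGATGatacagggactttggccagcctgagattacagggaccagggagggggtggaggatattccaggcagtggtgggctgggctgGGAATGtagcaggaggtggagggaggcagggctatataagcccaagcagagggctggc
Tpm2: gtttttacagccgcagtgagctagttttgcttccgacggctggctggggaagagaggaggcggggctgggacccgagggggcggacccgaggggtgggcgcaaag
Tnni3: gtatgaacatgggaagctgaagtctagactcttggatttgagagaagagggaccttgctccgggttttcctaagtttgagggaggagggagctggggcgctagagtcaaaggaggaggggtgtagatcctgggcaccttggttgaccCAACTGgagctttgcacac

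The E-box, the letters read by basic helix-loop-helix factors, was present in the full 250 bases before at least 1 start of all 8 genes, against 66.2% of the 32817 promoters in the table. Tnni1 has 2 listed starts, and the window before the first, which is printed, held 4 matches, at 224, 191, 68 and 31 bases before it. The window before the second held 2, at 158 and 121, and both windows lie within the annotated span of Tnni1. That of Tnnc1 held 2, at 197 and 145. The single match of Tpm2, at 227 bases, lies outside the printed stretch, and that of Tnni3 lies at 19 bases. The MCAT motif, the letters read by TEAD factors, was found before Tnnc1, at 58 bases and on the opposite strand (GGAATG), and before Tnnt2 and Tpm1, and was in 12.6% of all promoters. TATAAA (12.4% of all promoters) was found before Tnnt1, GATAA (22.6%) before Tnnt2 and Tpm3, and the MEF2 (2.92%) and CArG (1.47%) motifs before none of the 8. These are matches of letters in a window and are not evidence of binding.

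Depth was 19274045 to 26820228 counts per library, and the 10 genes took 1.34% to 1.74% of the counts. Values are given as CPM, the counts scaled to a common library size with edgeR's TMM method. The sequenced tissue carried the cardiomyocyte markers at a summed 66298 to 70882 CPM in P3 sham, 70381 to 77590 in P3 PAB, 69882 to 78417 in P7 sham and 61877 to 67889 in P7 PAB hearts, without overlap at P7. Myh6 was at 28176 to 34842 CPM in P7 sham and 16628 to 17887 in P7 PAB hearts. Without it the other 11 markers summed to 41706 to 43733 in P7 sham and 45249 to 50002 in P7 PAB hearts, so that this sum was higher. Among these 11, Actc1 was at 8232 to 10042 CPM in P7 sham and 12398 to 16139 in P7 PAB hearts. Of all 12 markers, 4 had a log2 fold change of PAB over sham above 0 at P7, and the median was -0.12. Mitochondrial genes took 11.4% to 13.1% of counts at P3, 18.0% to 18.1% in the P7 PAB group and 21.1% to 22.2% in the P7 sham group. The P7 PAB libraries stood apart in that log2 CPM fell with the exonic length of the gene, by 0.150 and 0.141 per doubling of length, while in the other 9 libraries this slope was -0.029 to 0.067. Xist was high in P3 sham replicate 1 and in all 3 P7 sham libraries (630.2 to 1061 CPM) and Ddx3y in the other 7 (42.9 to 51.0 CPM), so that at P7 the class of the library and the operation cannot be told apart. The P7 sham libraries also stood apart. The mitochondrial transcripts mt-Co2 and mt-Co3 were at 539.0 to 739.1 and 708.4 to 1006 CPM in them and at 3883 to 4547 and 5783 to 7620 CPM in the other 8 libraries, while the other mitochondrial genes summed to 233690 to 248765 CPM, above all other libraries (93412 to 194127). Comparisons of the 10 genes were also fitted with the length trend removed, and the fit that takes this class into account follows at the end of the comparisons. In whole tissue, fewer cells of a type and less RNA per cell cannot be told apart.

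**Figure D1:**
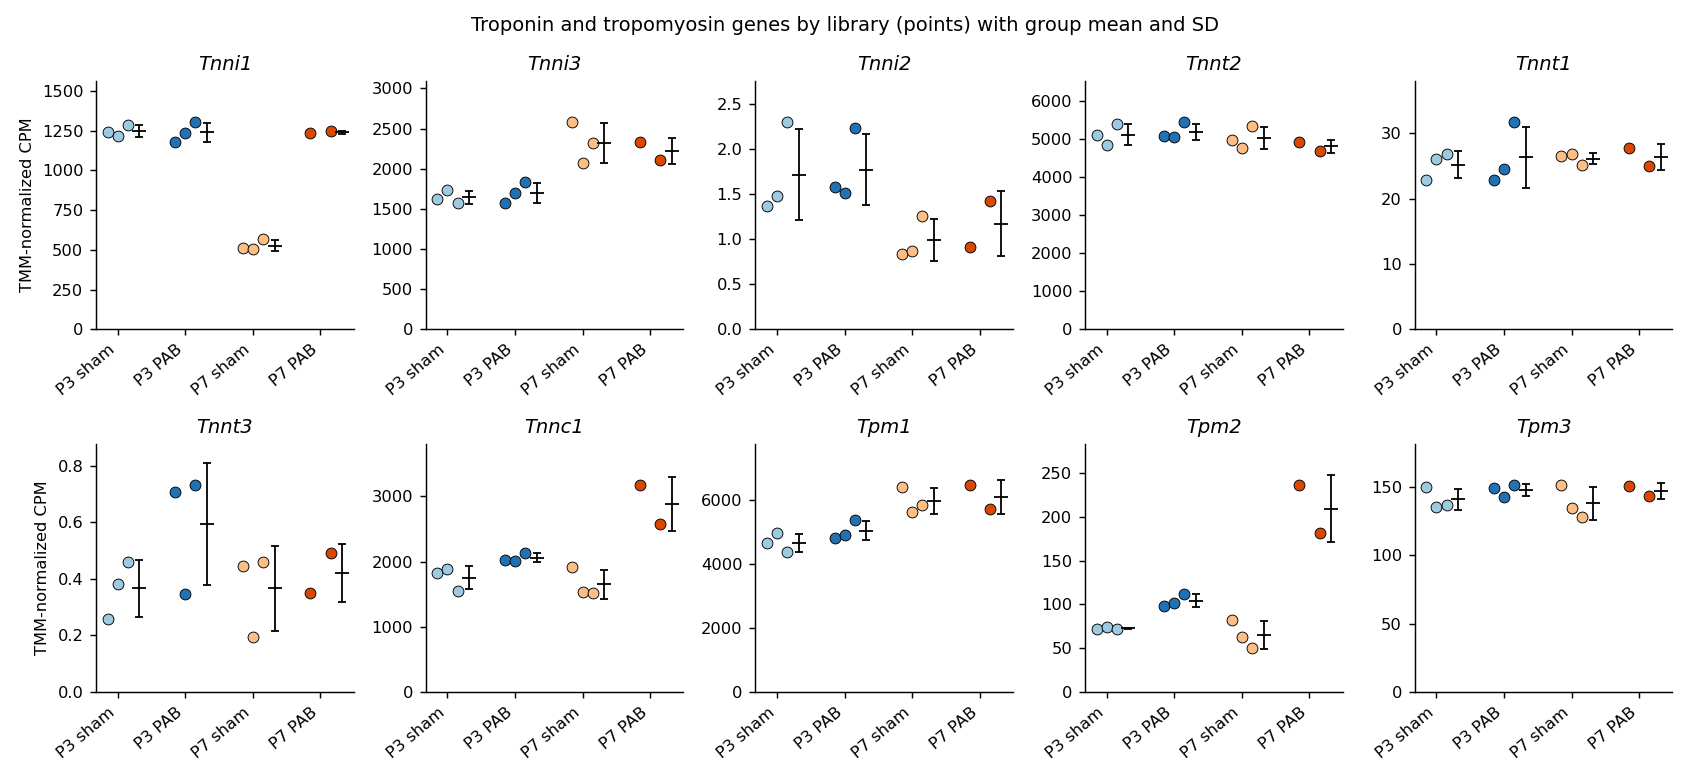
Each panel plots the TMM-normalized CPM of a gene (vertical axis, linear, from 0) in the 11 libraries by group (points), with the group mean and SD as a bar beside them. Tnni1 sits between 1178 and 1302 CPM in both P3 groups and in P7 PAB hearts and between 502.3 and 567.4 in P7 sham hearts.

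Tnni1, the slow skeletal troponin I of the immature heart, was high at P3, low in P7 sham hearts and high in P7 PAB hearts. Its CPM was 1240.2, 1217 and 1286 in P3 sham, 1178, 1235 and 1302 in P3 PAB, 509.9, 502.3 and 567.4 in P7 sham and 1233 and 1246 in P7 PAB hearts. The P7 sham libraries were the lowest 3 of all 11, and the P7 PAB libraries lay within the range of the P3 libraries. The group means were 1248 ± 34.9 (SD, n = 3), 1239 ± 61.8 (SD, n = 3), 526.5 ± 35.6 (SD, n = 3) and 1239 ± 9.09 (SD, n = 2).

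By edgeR's quasi-likelihood test, Tnni1 rose 2.35-fold in P7 PAB over P7 sham hearts (log2 fold change 1.23, SE 0.075, adjusted p = 9.1e-08). It was called in all 22 alternatives of the processing, between 0.81 and 1.29 on the log2 scale. The value was 1.15 with the trend with exonic length removed and 0.81 with the trend with the length of the principal transcript removed, a correction added after the data were seen. At P3, PAB and sham hearts differed by -0.011 (SE 0.067, 95% interval -0.15 to 0.13, adjusted p = 0.98), and their libraries overlapped.

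From P3 to P7, Tnni1 fell by 1.24 on the log2 scale in sham hearts (SE 0.069, adjusted p = 7.6e-09), which was a level 0.422 times that at P3. In PAB hearts the change over the same days was 0.00087 (SE 0.075, 95% interval -0.16 to 0.16, adjusted p = 0.99). With the principal transcript length trend removed the value in PAB hearts was -0.36 (adjusted p = 0.0049), and scaling by total counts, which moved the median of all genes by -0.25, gave -0.25 (adjusted p = 0.011). Both passed the adjusted p as a lower level at P7 and fell short of 1.5-fold, and of the 22 alternatives these were the 2 that passed it. The comparison of P7 PAB with P7 sham and that of P7 sham with P3 sham share the P7 sham libraries.

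Tnni3, the adult cardiac troponin I, had higher CPM at P7 than at P3 under both operations, of which the difference in PAB hearts did not hold once the length trend was removed. Its CPM was 1629, 1734 and 1577 in P3 sham, 1578, 1695 and 1829.7 in P3 PAB, 2577, 2076 and 2316 in P7 sham and 2339 and 2103 in P7 PAB hearts. All 5 P7 libraries were above all 6 P3 libraries, and at each age the PAB and sham libraries overlapped. The log2 difference from P3 to P7 was 0.50 in sham (SE 0.085, adjusted p = 4.9e-04) and 0.39 in PAB hearts (SE 0.094, adjusted p = 0.0040), which passed the adjusted p but not the 1.5-fold threshold. In sham hearts it passed the adjusted p in all 22 alternatives, with the lowest value, 0.18 (adjusted p = 0.046), when scaled by total counts. This scaling moved the median of all genes by -0.31. The value in PAB hearts was 0.16 (adjusted p = 0.13) with the exonic length trend removed and -0.071 (adjusted p = 0.48) with the principal transcript length trend removed, and it passed the adjusted p in 17 of 22 alternatives, not with a length trend removed, when scaled by total counts or without P7 PAB replicate 1.

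Between PAB and sham hearts, Tnni3 differed by 0.047 at P3 (SE 0.085, adjusted p = 0.94) and by -0.065 at P7 (SE 0.095, 95% interval -0.27 to 0.14, adjusted p = 0.61). The P7 value was -0.31 (adjusted p = 0.0077) with the exonic length trend removed and -0.58 (adjusted p = 6.0e-05) with the principal transcript length trend removed, just under the 1.5-fold threshold of 0.58496 and not called under either. Tnni3 and Dnaaf3, a neighbour on the same strand at 1.2 to 2.5 CPM, share 86 bp of exon.

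Tnni2, fast skeletal troponin I, was nearly absent, with 17 to 55 counts a library. Its CPM was 1.37 to 2.30 in P3 sham, 1.52 to 2.23 in P3 PAB, 0.838 to 1.26 in P7 sham and 0.917 to 1.43 in P7 PAB hearts. The log2 difference from P3 to P7 in sham hearts was -0.77 (SE 0.29, adjusted p = 0.055) and was not called, although it was called in 5 of 21 alternatives. In PAB hearts the difference from P3 to P7 was not called, but was -0.92 (adjusted p = 0.042) and -1.13 (adjusted p = 0.020), and called, with the exonic and the principal transcript length trend removed. PAB and sham libraries overlapped at each age.

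The exchange of troponin I isoforms can be read as a share that does not depend on library size. Tnni1 made up 43.2%, 41.2% and 44.9% of the Tnni1 plus Tnni3 counts in P3 sham, 42.8%, 42.2% and 41.6% in P3 PAB, 16.5%, 19.5% and 19.7% in P7 sham and 34.5% and 37.2% in P7 PAB hearts. The 3 P7 sham libraries were lowest, the 2 P7 PAB libraries came next, and all 6 P3 libraries were above them. The means were 43.1% ± 1.84 (SD, n = 3), 42.2% ± 0.591 (SD, n = 3), 18.6% ± 1.77 (SD, n = 3) and 35.9% ± 1.89 (SD, n = 2). Counting error was smaller than this spread, since the Wilson 95% interval of P7 sham replicate 1 was 16.2% to 16.8%. Such intervals cover counting error only.

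**Figure D2:**
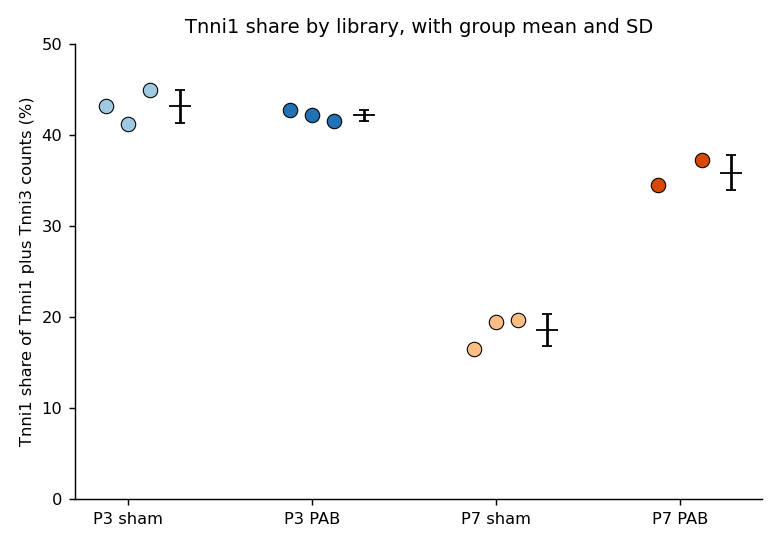
The vertical axis is the share of Tnni1 in the counts of Tnni1 plus Tnni3 (%, from 0), with 1 point per library and the mean and SD of each group beside the points. The P3 groups lie between 41.2% and 44.9%, P7 PAB hearts at 34.5% and 37.2% and P7 sham hearts between 16.5% and 19.7%.

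The share differed by 17.3 percentage points between P7 PAB and P7 sham hearts (exact two-sided permutation p = 0.1, the smallest that 10 splits of 5 libraries allow). At P3 the difference was -0.969 points (exact permutation p = 0.5). The share was 24.6 points lower at P7 than at P3 in sham hearts, written as -24.6, and the corresponding value in PAB hearts was -6.31 (exact permutation p = 0.1 for each, again the smallest possible). With the exonic length trend removed the value in PAB hearts was -3.57. Over both operations, the difference between P7 and P3 was -15.4 points with labels permuted within operation (exact permutation p = 0.005, the smallest of 200 splits, and 0.03 after Benjamini-Hochberg adjustment over the 6 comparisons of the share). Over both ages, that between PAB and sham was 8.16 points (exact permutation p = 0.08, adjusted 0.12).

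Summed, the 2 isoforms were at 2849.7 ± 255.8 CPM (SD, n = 3) in the P7 sham group and at 3461 ± 157.5 (SD, n = 2) in the P7 PAB group. Per kilobase of principal transcript, which allows levels of different genes to be compared, Tnni1 was at 457.8 ± 30.9 (SD, n = 3) and Tnni3 at 2547 ± 274.6 (SD, n = 3) CPM per kb after the sham operation at P7, and at 1078 ± 7.90 (SD, n = 2) and 2436 ± 182.7 (SD, n = 2) in P7 PAB hearts. On this scale the Tnni1 share of the pair was 37.6%, 36.6%, 15.3% and 30.7%, from the P3 sham group to the P3 PAB, the P7 sham and the P7 PAB group. Tnni3 had the higher mean of the 2 isoforms in all 4 groups.

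Tnnc1, the calcium-binding subunit of cardiac and slow skeletal muscle, was higher in PAB than in sham hearts at P7. Its CPM was 1826, 1881 and 1551 in P3 sham, 2027, 2013 and 2135 in P3 PAB, 1913, 1530.2 and 1511 in P7 sham and 3172 and 2583 in P7 PAB hearts. The P7 PAB libraries were the highest of the 11, and at P3 as well no PAB library overlapped the sham libraries. The rise at P7 was 1.74-fold (log2 fold change 0.80, SE 0.11, adjusted p = 5.5e-05), and the P3 difference was 0.23 (SE 0.10, adjusted p = 0.58), which was not called.

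Tnnc1 is the shortest of the 10 genes by exonic length, at 1041 bp, and the P7 value was 0.42 (adjusted p = 0.0025) with the exonic length trend removed, 0.39 with the replicate block added to this, and 0.19 (adjusted p = 0.070) with the principal transcript length trend removed. It was called in 19 of 22 alternatives, and these were the 3 in which it was not. Nisch overlaps Tnnc1 on the opposite strand without shared exon bases. Since the strand setting of the counting is not given in the sources used here, reads from its introns could not be set apart.

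Among the troponin T genes, Tnnt2, the cardiac isoform, made up nearly all of the signal and did not differ between groups at the thresholds used. Its CPM was 4836 to 5393 in P3 sham, 5057 to 5439 in P3 PAB, 4765 to 5334 in P7 sham and 4696 to 4934 in P7 PAB hearts. The log2 difference between PAB and sham hearts was 0.023 at P3 (SE 0.067, adjusted p = 0.97) and -0.062 at P7 (SE 0.075, 95% interval -0.22 to 0.098, adjusted p = 0.53). With the principal transcript length trend removed the P7 value was -0.47 (adjusted p = 6.1e-04), and with the exonic length trend removed it was 0.12, so that its direction depends on the length used.

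Tnnt1, slow skeletal troponin T, was at 22.9 to 31.7 CPM over all 11 libraries, and the P7 difference was 0.012 (SE 0.12, 95% interval -0.24 to 0.27, adjusted p = 0.95), and -0.22 (adjusted p = 0.17) and -0.46 (adjusted p = 0.011) with the exonic and the principal transcript length trend removed. Tnnt3, fast skeletal troponin T, had 4 to 18 counts a library. Its log2 difference at P3 was 0.70 (SE 0.42, adjusted p = 0.72), a size above 1.5-fold with an interval of -0.19 to 1.59. On the scale of CPM per kb, Tnnt2 was 99.4% of the troponin T genes in every group.

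**Figure D3:**
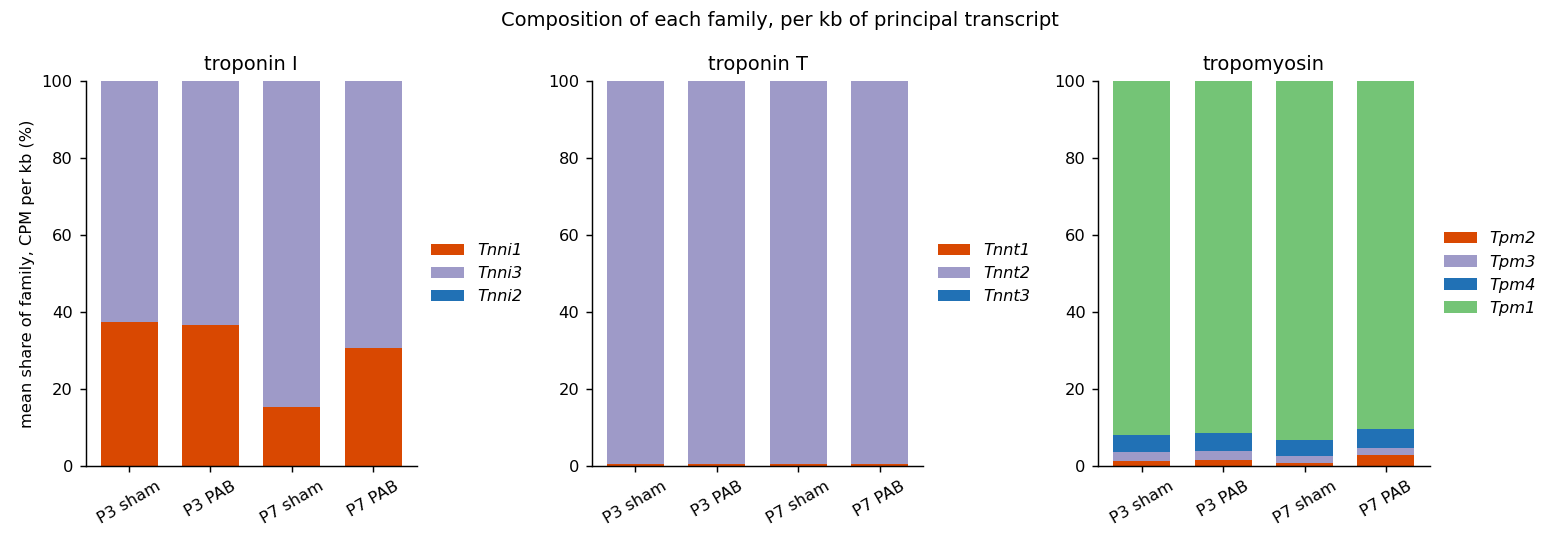
Bars show the mean share of each gene in its family (%, CPM per kb of principal transcript) in the 4 groups, sham before PAB at each age, for troponin I, troponin T and the tropomyosins with Tpm4. In the troponin I bars Tnni1 takes 37.5%, 36.6%, 15.3% and 30.7% in this order, while Tnnt2 takes 99.4% of troponin T in each group.

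Tpm2, beta tropomyosin, had the largest fold change of the 10 genes at P7 and was a minor part of the tropomyosin signal. Its CPM was 72.4, 73.6 and 71.6 in P3 sham, 98.1, 101.4 and 112.3 in P3 PAB, 82.0, 62.3 and 50.5 in P7 sham and 236.0 and 181.9 in P7 PAB hearts. PAB libraries were above the sham libraries at both ages without overlap, and the P7 PAB libraries were the highest of the 11. The means were 72.5 ± 0.995 (SD, n = 3), 103.9 ± 7.44 (SD, n = 3), 65.0 ± 15.9 (SD, n = 3) and 209.0 ± 38.3 (SD, n = 2).

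Tpm2 rose 3.22-fold at P7 (log2 fold change 1.69, SE 0.15, adjusted p = 1.2e-06) and was called in all 22 alternatives, between 1.49 and 1.89. It was 1.54 and 1.52 with the exonic and the principal transcript length trend removed. At P3 the difference was 0.52 (SE 0.13, unadjusted p = 0.0014, adjusted p = 0.20 by edgeR), which was not called. The adjusted p was 0.018 by DESeq2, 0.0028 with edgeR on the P3 groups alone, 0.046 without a filter and 0.045 without P7 sham replicate 1, and 0.085 to 0.65 in the other 18 alternatives, with log2 values of 0.46 to 0.56, short of 1.5-fold, in all 22. From P3 to P7, Tpm2 rose in PAB hearts by 1.01 (SE 0.14, adjusted p = 6.3e-05), or 0.89 and 0.87 with the exonic and the principal transcript length trend removed, while in sham hearts the difference was -0.16 (SE 0.13, adjusted p = 0.39). The value in sham hearts passed the adjusted p in 2 of 22 alternatives, short of 1.5-fold in both. These were -0.36 without P7 sham replicate 1 (adjusted p = 0.019) and -0.47 scaled by total counts (adjusted p = 0.0051).

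Tpm1, alpha tropomyosin, was the main tropomyosin. Its CPM was 4382 to 4965 in P3 sham, 4829 to 5386 in P3 PAB, 5631 to 6415 in P7 sham and 5714 to 6475 in P7 PAB hearts. The P7 libraries were above the P3 libraries within each operation, and the log2 difference from P3 to P7 was 0.35 in sham (SE 0.076, adjusted p = 0.0025) and 0.27 in PAB hearts (SE 0.085, adjusted p = 0.017), past the adjusted p and short of 1.5-fold. In sham hearts Tpm1 passed the adjusted p in 20 of 22 alternatives, not when scaled by total counts (0.043, adjusted p = 0.59) or with a term for the class by Xist and Y transcripts. In PAB hearts it passed in 17, not when scaled by total counts (0.023, adjusted p = 0.82), with the principal transcript length trend removed, or without P3 PAB replicate 1, P3 PAB replicate 2 or P7 PAB replicate 1. PAB and sham hearts differed by 0.11 at P3 (SE 0.076, adjusted p = 0.76) and 0.031 at P7 (SE 0.085, adjusted p = 0.80). The P7 value was 0.16 and -0.19 (adjusted p = 0.17 and 0.061) with the exonic and the principal transcript length trend removed.

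Tpm3, the gamma tropomyosin gene, was at 127.6 to 151.1 CPM over all libraries, and the P7 difference was 0.093 (SE 0.080, 95% interval -0.077 to 0.26, adjusted p = 0.37), and 0.20 and -0.052 with the exonic and the principal transcript length trend removed. A near copy, Tpm3-rs7, had 8 to 16 counts, and how reads that fit both were counted is not given in the sources used here. Tpm4, of the non-muscle tropomyosins, was at 294.6 ± 24.9 CPM (SD, n = 3) after the sham operation and 381.3 ± 25.0 (SD, n = 2) after PAB at P7, and the log2 difference of 0.37 (SE 0.089, adjusted p = 0.0034) was short of 1.5-fold. It was 0.14 (adjusted p = 0.18) and 0.20 (adjusted p = 0.066) with the exonic and the principal transcript length trend removed. Tnnc2, fast skeletal troponin C, had 0 to 5 counts and was not tested. Per kb, at P7, Tpm1 was 93.2% of the tropomyosin genes after the sham operation and 90.3% after PAB, and Tpm2 was 0.912% and 2.79%.

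**Figure D4:**
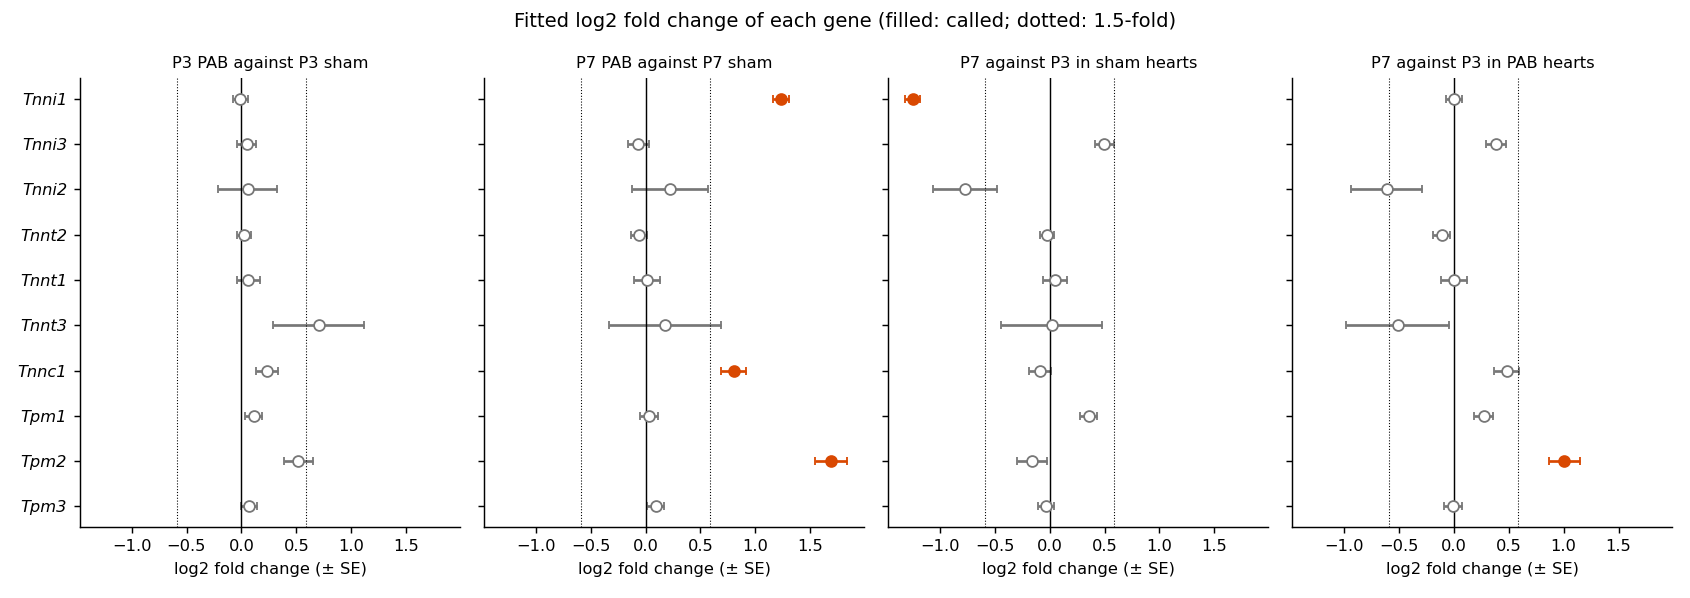
Each panel gives the fitted log2 fold change with its SE (horizontal axis) of the 10 genes for a comparison, filled where the gene was called and with dotted lines at 1.5-fold. Tnni1, Tnnc1 and Tpm2 are filled for PAB at P7, Tnni1 for age in sham hearts and Tpm2 for age in PAB hearts, and none is filled for PAB at P3.

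Counted over the 10 genes, edgeR called none at P3 (0 of 10 higher and 0 of 10 lower), where 0.108% and 0.019% of all tested genes were called. At an unadjusted p under 0.05 there were 2 higher (Tnnc1 and Tpm2) and 0 lower, against 4.5% and 3.89% of all genes, and DESeq2 also called 0. These 2 were also the members whose libraries did not overlap between groups, against 8.65% of all genes with higher and 8.02% with lower PAB libraries.

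At P7, 3 of 10 were called higher and 0 lower, where 9.63% and 8.59% of all genes were called. DESeq2 called 3 and 0. An unadjusted p under 0.05 was found for 3 higher and 0 lower members, against 26.2% and 25.7% of all genes. The adjusted p alone was passed by 3 members, all higher, against 44.9% of all genes in either direction. The median log2 fold change of the 10 genes was 0.13, beside -0.0037 over all genes tested. The same 3 genes did not overlap between groups in the higher direction, against 30.8% of all genes (29.6% in the lower direction, with 0 members).

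With age, 1 of 10 was called lower in sham hearts (Tnni1, against 5.73% of genes) and 0 higher (against 5.62%), while Tnni3 and Tpm1 passed the adjusted p alone, as did 33% of genes in either direction. DESeq2 called 1 lower and 0 higher in sham hearts. In PAB hearts 1 of 10 was called higher (Tpm2, against 9.5%) and 0 lower (against 8.2%), and Tnni3, Tnnc1 and Tpm1 passed the adjusted p alone, as did 43.5% of genes. These 3 did not pass it with the principal transcript length trend removed (-0.071, -0.067 and 0.098, with adjusted p of 0.48, 0.54 and 0.32), so that the sign of Tnni3 and Tnnc1 turned, and with the exonic length trend removed Tpm1 alone of the 3 passed it (0.39, adjusted p = 0.0027). These 3 and Tpm2 did not overlap between ages in the higher direction, against 32% of all genes, and Tnni2 and Tnnt2 in the lower, against 30.7%. In PAB hearts DESeq2 called 1 higher and 0 lower, and no lower member had an unadjusted p under 0.05, against 24.9% of all genes. In sham hearts Tnni3 and Tpm1 (22.4% of all genes) and, in the lower direction, Tnni1 and Tnni2 (22.9%) did not overlap.

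Whether the PAB effect differed between the ages was tested as the interaction of age and operation. It was called for 3 of 10 genes with a log2 effect more positive at P7 than at P3 (13.3% of all genes) and for 0 in the other direction (12.6%), with 25.9% of all genes called in either. The difference in effect was 1.25 for Tnni1 (SE 0.10, adjusted p = 6.3e-06), 1.17 for Tpm2 (SE 0.20, adjusted p = 8.6e-04) and 0.57 for Tnnc1 (SE 0.15, adjusted p = 0.014). Tnni1 and Tpm2 kept the call in all 21 alternatives. Tnnc1 kept it in 17, and lost it without P7 PAB replicate 1 (0.41, adjusted p = 0.093) and with the length trend removed (0.25 and, with the principal transcript length, 0.041). With the principal transcript length trend removed, Tnni3 (-0.56, adjusted p = 0.0025) and Tnnt2 (-0.43, adjusted p = 0.016) were called in the other direction, where 7.33% of all genes were called, beside Tnni1 and Tpm2 in the first direction (7.24%). DESeq2 called the same numbers as edgeR, 3 and 0.

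With a term for the class of each library by Xist and Y transcripts, the P7 differences were 1.22 for Tnni1 (adjusted p = 2.6e-04), 1.68 for Tpm2 (adjusted p = 0.0012) and 0.89 for Tnnc1 (adjusted p = 0.0074). This term is estimated from the P3 sham libraries alone, since in each of the other groups all libraries are of the same class.

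**Figure D5:**
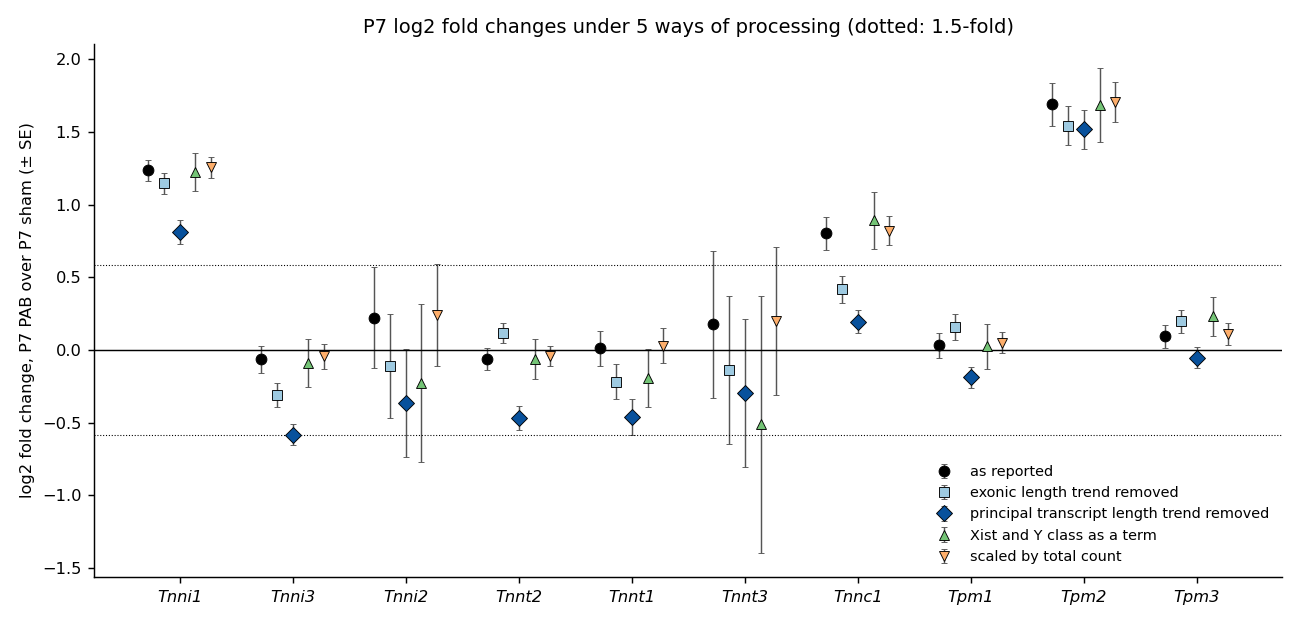
The log2 fold change of P7 PAB over P7 sham (vertical axis, with SE) is shown for each of the 10 genes under 5 ways of processing, with dotted lines at 1.5-fold. Tnni1 and Tpm2 stay above the upper line under all 5, Tnnc1 drops to 0.42 and 0.19 when a length trend is removed, and Tnni3 reaches -0.58.

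Other genes of the thin filament were read from a list of 20 partners, of which 19 were tested. At P3, edgeR called 1 higher and 0 lower, DESeq2 called the same numbers, and 5 and 0 had an unadjusted p under 0.05. The called gene was Acta1, skeletal alpha-actin, with a log2 fold change of 1.87 (SE 0.30, adjusted p = 0.019). At P7, 4 were higher and 0 lower by edgeR, with 4 and 1 by DESeq2 and 8 and 6 at an unadjusted p under 0.05. Of all genes 9.63% were called higher and 8.59% lower at P7, and 26.2% and 25.7% had an unadjusted p under 0.05. At P3 the shares were 0.108% and 0.019% called and 4.5% and 3.89% at an unadjusted p under 0.05. The counts of this and the following lists are to be read against the shares of the same age. These shares are those of the reported fit, and those at P7 with a length trend removed are not given here. The 4 genes were Acta1 at 2.94 (SE 0.33), Csrp3, a muscle LIM protein, at 1.02 (SE 0.099), Actc1, cardiac alpha-actin, at 0.65 (SE 0.12) and Cfl2, the muscle cofilin, at 0.62 (SE 0.089). With the exonic length trend removed 2 were higher and 2 lower, and Actc1 (0.34) and Cfl2 (0.50) were not called, and with the principal transcript length trend removed 2 were higher and 1 lower, and Actc1 (0.33) and Csrp3 (0.49) were not called. The median log2 fold change of the 19 at P7 was 0.053, beside -0.0037 over all genes tested.

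The 18 genes of the thick filament list were all tested. At P3 edgeR called 0, while DESeq2 called 1 higher, and 4 higher and 1 lower had an unadjusted p under 0.05. At P7, 4 were higher and 1 lower, with Myh7, beta myosin heavy chain, at 2.15 (SE 0.25), Myl9, a smooth muscle regulatory light chain, at 1.79 (SE 0.21), Myl1, a skeletal light chain, at 1.62 (SE 0.24) and Myl4, the atrial light chain, at 1.31 (SE 0.34). Myh6, the adult alpha myosin heavy chain, which is the lower gene and was named after its values were seen, fell by 0.89 (SE 0.090), and its P7 mean was 31920 CPM after the sham operation and 17257 after PAB. With the exonic length trend removed the counts were again 4 and 1, and with the principal transcript length trend removed they were 3 and 1, with Myl4 (0.77, adjusted p = 0.11) not called. The median of the 18 at P7 was 0.30.

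Because several of the 10 genes are also used in skeletal or smooth muscle and in atria, markers of these tissues were read in the same libraries. The 16 skeletal muscle markers summed to 26.5 to 46.2 CPM in P3 sham, 72.3 to 72.6 in P3 PAB, 31.0 to 47.6 in P7 sham and 106.3 to 152.7 in P7 PAB hearts. Of these, 11 had a mean count under 10, Myod1 was at 0 in every library, and 8 were tested, of which 3 were called higher at P7 and 1 at P3 (Mybpc2 at 1.06, SE 0.17, adjusted p = 0.019). Most of the sum was Casq1, the skeletal calsequestrin, at 88.6 ± 31.8 CPM (SD, n = 2) in P7 PAB hearts, and Mybpc2.

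The 10 smooth muscle markers summed to 2344 to 2577, 2859 to 3106, 2745 to 3116 and 2917 to 3142 CPM in the same order of groups, with 2 of 10 called higher at P7. These were Cnn1 at 2.56 (SE 0.29) and Tagln at 1.19 (SE 0.11), while Myh11, the smooth muscle myosin heavy chain, differed by -0.24 (SE 0.13, adjusted p = 0.14). The 10 atrial markers summed to 280.8 to 383.9, 468.5 to 540.0, 196.1 to 247.5 and 1501 to 1994 CPM. Of the 9 tested, 2 were higher and 2 lower at P7, and Nppa, the atrial natriuretic peptide, which ventricles also make under load, led them at 4.40 (SE 0.32). Of the cardiomyocyte markers, 1 was called higher and 4 lower of 12 at P7. Of the endothelial markers 1 was higher and 0 lower of 8, and of the fibroblast markers 0 were higher and 2 lower of 8. The endothelial markers summed to 1503 to 1561 CPM in P7 sham and 1271 to 1389 in P7 PAB hearts, and the fibroblast markers to 5999 to 6067 and 4573 to 5449, again without overlap, and the erythroid markers to 2247 to 3044 and 3412 to 3912, higher without overlap. At P3 edgeR called 0 of the smooth muscle, atrial, cardiomyocyte, endothelial, fibroblast and erythroid markers, where DESeq2 called 1 atrial marker higher. At an unadjusted p under 0.05 there were 3 higher and 1 lower of the smooth muscle markers, 2 and 1 of the atrial, 3 and 3 of the cardiomyocyte, 1 and 1 of the endothelial, 0 and 1 of the fibroblast and 0 of the erythroid markers at P3. Of the 8 skeletal muscle markers tested, 4 were higher and 0 lower at this threshold at P3. Beside these counts, 4.5% of all genes were higher and 3.89% lower. At P7, of the 7 erythroid markers edgeR and DESeq2 each called 0, with 2 higher at an unadjusted p under 0.05. With the exonic and the principal transcript length trend removed, 3 skeletal and 2 smooth muscle markers were called higher under both, while the cardiomyocyte markers had 0 higher and 2 lower under the first and 0 and 1 under the second, the atrial markers 2 higher and 2 lower and 1 and 2, and the fibroblast and endothelial markers 0 in either direction. The part of these tissues in the values of Tnni1, Tnnc1 and Tpm2 was not tested.

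As a description over the 11 libraries, which share their normalization and fall into 4 groups, the genes with log2 CPM most like that of Tnni1 among 9228 with a mean of at least 10 CPM were Angptl4 (Pearson's r = 0.988), mt-Co2 (0.987), mt-Co3 (0.986), Slc22a17 (0.985) and P3h4 (0.982). Those most like Tnni3 were Iqsec2 (0.970), Prnd (0.966), Tmsb10 (0.965), Ly6e and Slc2a4 (both 0.951). Among the 10 genes themselves, the pairs with the highest values were Tnnc1 with Tpm2 (0.972) and Tnni3 with Tpm1 (0.962), and that of Tnni1 with Tnni3 was -0.668. The libraries low in Tnni1 are thus those low in mt-Co2 and mt-Co3, the 3 P7 sham libraries, and what these transcripts and Tnni1 share was not tested.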

How the data were processed

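Ventricular RNA was sequenced in 11 libraries. Per the labels and the methods of the study, the authors aligned reads with STAR 2.5.2b to GRCm38 (mm10) and deposited whole counts per gene, without normalization, in a table with 1 column per library. Which tool counted the reads, with which strand setting and Gencode release, is not given in the sources used here. Groups came from the sample titles.

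Counts were analysed with edgeR 4.0.16 in R 4.3.3 (TMM, filterByExpr, quasi-likelihood tests, with the 11 libraries fitted together as 4 groups). A gene was called when it differed 1.5-fold or more with p at or below 0.05 after Benjamini-Hochberg adjustment over all genes tested, and the interaction at the adjusted p alone. The Tnni1 share was compared by exact permutation tests. Lengths and positions came from GENCODE M21 and promoters from RefSeq. Length trends were removed by lowess (span 0.3) in each library. Alternatives were other scalings (RLE, total counts), other filters, DESeq2 1.42.0, no fold change threshold, the compared groups alone, a replicate block, length trends, the Xist and Y class and leaving out each library. Scripts were tested on simulated data.

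The genes, marker lists and comparisons were chosen with earlier results of these data known. All 10 genes are named, with Tnnc2 and Tpm4, up to 4 called genes with the largest fold changes per filament list and PAB comparison (Myh6 was added after its values were seen), the 5 genes most correlated with Tnni1 and with Tnni3, and markers beside a result. Tpm3-rs7, Dnaaf3 and Nisch are named as possible sources of shared reads. Replicates of a group differed beyond sampling noise (chi-square of 4.44 to 13.2 per gene between pairs).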

Additional observations from a re-analysis of the deposited data

Results flagged for a closer look

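The PAB effect differed between P7 and P3 for 3 genes by the interaction term of edgeR's quasi-likelihood fit. For Tnni1, the log2 effect was -0.011 at P3 and 1.23 at P7, a difference of 1.25 (adjusted p = 6.3e-06). For Tpm2, the log2 effect was 0.52 at P3 and 1.69 at P7, a difference of 1.17 (adjusted p = 8.6e-04). For Tnnc1, the log2 effect was 0.23 at P3 and 0.80 at P7, a difference of 0.57 (adjusted p = 0.014), which was 0.25 with the exonic length trend removed, 0.041 with the principal transcript length trend removed and 0.41 without P7 PAB replicate 1. In both directions 25.9% of all genes tested passed the same test. With a term for the Xist and Y class, estimated from the P3 sham libraries alone, the differences were 1.24 for Tnni1 (adjusted p = 1.5e-04), 1.17 for Tpm2 (adjusted p = 0.0081) and 0.63 for Tnnc1 (adjusted p = 0.038). The part of the length trend of the P7 PAB libraries, and of the Xist and Y class that separates the P7 groups, was not tested beyond these values.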

How the results depend on the processing

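At P7, Tnni1 and Tpm2 were called in all 22 alternatives and Tnnc1 in 19, with the count of called members at 2 under the 3 length corrections and 3 otherwise, and with 0 lower members throughout. The share of all genes called at P7 under the length corrections is not given here, so these counts cannot be set against it. Of 1078 log2 fold changes recomputed, 965 kept their direction and side of the threshold, 11 gained and 7 lost the call, and 95 changed sign, none of them a called value. The cause of these changes was not tested. Scaling by the total count shifted the median of all genes by -0.31 for age in sham and -0.25 for age in PAB hearts.

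The members called lower with age in sham hearts numbered 2, Tnni1 and Tnni2, when scaled by total counts, with the replicate block and with the length trend removed together with the block, and 1 to 2 on leaving out a library (2 without P3 sham replicate 1 or P7 sham replicate 3). Without a fold change threshold, 2 were called higher with age in sham and 4 in PAB hearts. In PAB hearts 1 was called lower when scaled by total counts and with each length trend removed, and 1 to 2 were called higher on leaving out a library (2 without P7 PAB replicate 2). With the principal transcript length trend removed, 2 members (Tnni3 and Tnnt2) were called lower for the interaction.

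The difference of the Tnni1 share at P7 was 12.7 points per exonic length and 19.8 with the length trend removed. That with age in sham hearts was -18.7 per exonic length and -22.3 per principal transcript length, and that with age in PAB hearts was -3.57 with the length trend removed.

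The sign of the following log2 values changed, and none of them was called in the reported fit. With DESeq2 it was so for age in PAB hearts Tnni1 at -0.0032. With RLE size factors it was so for age in PAB hearts Tnni1 at -0.0032. With a term for the Xist and Y class it was so for PAB at P3 Tnni2 at -0.076, Tnnt1 at -0.0011, and for PAB at P7 Tnni2 at -0.23, Tnnt1 at -0.19, Tnnt3 at -0.51, and for the interaction Tnni2 at -0.15. Without a filter it was so for age in PAB hearts Tnni1 at -0.0011. With the compared groups alone it was so for age in PAB hearts Tnni1 at -0.00069. With the replicate block it was so for age in sham Tnnt3 at -0.022, and for age in PAB hearts Tnnt1 at 0.062, and for the interaction Tnnt1 at 0.0085. Scaled by total counts it was so for PAB at P3 Tnnt2 at -0.021, and for age in sham Tnnt1 at -0.26, Tnnt3 at -0.29, and for age in PAB hearts Tnni1 at -0.25, and for the interaction Tnnt1 at 0.011. With the stricter filter it was so for age in PAB hearts Tnnt1 at 0.0016. With the exonic length trend removed it was so for PAB at P7 Tnni2 at -0.11, Tnnt1 at -0.22, Tnnt2 at 0.12, Tnnt3 at -0.14, and for age in sham Tnnt3 at -0.0061, and for age in PAB hearts Tnni1 at -0.053, Tnnt2 at 0.047, Tpm3 at 0.092, and for the interaction Tnni2 at -0.11, Tnnt2 at 0.066, Tpm1 at 0.024. With this and the replicate block it was so for PAB at P7 Tnnt1 at -0.15, Tnnt2 at 0.15, and for age in sham Tnnt3 at -0.049, and for age in PAB hearts Tnni1 at -0.0088, Tnnt2 at 0.078, Tpm3 at 0.068, and for the interaction Tnnt2 at 0.097, Tpm1 at 0.015. With the principal transcript length trend removed (chosen after seeing the data) it was so for PAB at P3 Tnni2 at -0.023, Tnni3 at -0.022, Tnnt2 at -0.033, and for PAB at P7 Tnni2 at -0.36, Tnnt1 at -0.46, Tnnt3 at -0.29, Tpm1 at -0.19, Tpm3 at -0.052, and for age in PAB hearts Tnni1 at -0.36, Tnni3 at -0.071, Tnnc1 at -0.067, and for the interaction Tnni2 at -0.34, Tpm3 at -0.10. On leaving out a library, the range crossed 0 for PAB at P3 Tnni2 (-0.14 to 0.31), Tnnt1 (-0.089 to 0.16), Tnnt2 (-0.016 to 0.063), Tnni1 (-0.046 to 0.024), Tnni3 (-0.0071 to 0.098), and for PAB at P7 Tnnt1 (-0.067 to 0.089), Tnni3 (-0.14 to 0.016), Tnnt3 (-0.11 to 0.41), Tpm1 (-0.062 to 0.12), Tnni2 (-0.12 to 0.52), and for age in sham Tnnt1 (-0.014 to 0.094), Tnnt3 (-0.19 to 0.31), Tpm3 (-0.10 to 0.022), Tnnt2 (-0.070 to 0.015), and for age in PAB hearts Tnni1 (-0.034 to 0.023), Tpm3 (-0.047 to 0.034), Tnnt1 (-0.094 to 0.14), and for the interaction Tnnt1 (-0.14 to 0.085), Tpm3 (-0.027 to 0.097), Tnni2 (-0.18 to 0.46), Tpm1 (-0.18 to 0.0077).

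Same-numbered libraries of different groups had correlations of their deviations of -0.0998 to 0.144, not all above 0.1, so the numbers were not taken to pair the libraries. All 6 P3 libraries correlated best with their own number across operations, as did 3 of 6 sham libraries across ages. The replicate block changed 1 call of a member, that of Tnni2 with age in sham hearts (-0.79, adjusted p = 0.020). Tnni2 with the stricter filter, and Tnnt3 there and in some fits of the compared groups alone, were not tested. The planned unfiltered fit gave an infinite prior and was run with bias-adjusted residuals. The low counts of Tnni2 and Tnnt3, 17 to 55 and 4 to 18 a library, limit what can be read from them.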
